A study of Mus musculus with 24 samples.

Results

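MHC class I molecules display peptides to CD8 T cells, and 10 genes of this route were followed across 24 mouse tumours: the heavy chains H2-K1 and H2-D1, the light chain B2m, the peptide transporter Tap1 and Tap2, the loading factor Tapbp, the transactivator Nlrc5 and the immunoproteasome subunits Psmb8, Psmb9 and Psmb10. They were taken by gene symbol from 55414 genes with counts, and all 10 passed the expression filter that left 16029 genes for testing. RNA came from D4M tumours, a mouse melanoma line grown in wild-type C57BL/6 mice, with 6 tumours in each of 4 groups. The IgG2a group received a control antibody by intraperitoneal injection and the PD-1 group an antibody that blocks PD-1, an inhibitory receptor of T cells. The BRQ+IgG2a and BRQ+PD-1 groups received these antibodies and brequinar. Brequinar blocks dihydroorotate dehydrogenase, an enzyme of pyrimidine synthesis. The labels give no mouse age, dose or day of collection, every group carried tumours of the 1 line, and every group received an antibody. The labels call the libraries biological replicates and do not say whether each tumour came from a separate mouse.

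A class I molecule is a heavy chain held together with beta-2-microglobulin and a peptide. Proteasomes cut cytosolic proteins into peptides, the TAP1-TAP2 pump carries these into the endoplasmic reticulum, and tapasin, the product of Tapbp, bridges the pump to empty class I molecules. Interferon gamma is the classical inducer of the route: it raises NLRC5, which acts at class I promoters, and the subunits PSMB8, PSMB9 and PSMB10, which take the places of the constitutive catalytic subunits PSMB5, PSMB6 and PSMB7 in newly built proteasomes.

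The promoter sequences below show where members carry, or lack, elements known to answer interferon and NF-kappaB. Windows of 250 bases before a RefSeq gene start (build GRCm38.p6) were found for 8 of the 10 members. Tap2 and Nlrc5 had none. Both strands were searched for a pattern like the interferon-stimulated response element (GAAA, any 2 bases, GAAA), the IRF element GAANNGAAA, the gamma-activated site TTCNNNGAA and the kappaB element of class I genes, which is the first run of capitals in H2-K1 and H2-D1. Capitals mark the matches. The first pattern and the IRF element can share bases. The sequences run 5′ to 3′ on the strand of the gene.
H2-K1: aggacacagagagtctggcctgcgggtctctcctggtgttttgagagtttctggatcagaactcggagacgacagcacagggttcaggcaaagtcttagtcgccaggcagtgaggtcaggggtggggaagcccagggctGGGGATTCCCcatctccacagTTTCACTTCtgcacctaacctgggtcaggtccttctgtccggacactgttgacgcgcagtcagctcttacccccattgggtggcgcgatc
H2-D1: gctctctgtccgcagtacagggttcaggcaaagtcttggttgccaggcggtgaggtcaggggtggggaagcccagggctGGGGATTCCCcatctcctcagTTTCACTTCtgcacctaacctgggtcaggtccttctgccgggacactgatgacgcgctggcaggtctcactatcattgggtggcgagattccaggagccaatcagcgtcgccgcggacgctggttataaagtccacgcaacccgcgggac
B2m: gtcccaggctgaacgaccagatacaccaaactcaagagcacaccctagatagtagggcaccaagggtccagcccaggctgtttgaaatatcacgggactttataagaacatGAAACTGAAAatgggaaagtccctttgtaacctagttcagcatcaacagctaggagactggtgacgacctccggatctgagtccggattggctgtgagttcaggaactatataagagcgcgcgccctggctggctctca
Psmb8: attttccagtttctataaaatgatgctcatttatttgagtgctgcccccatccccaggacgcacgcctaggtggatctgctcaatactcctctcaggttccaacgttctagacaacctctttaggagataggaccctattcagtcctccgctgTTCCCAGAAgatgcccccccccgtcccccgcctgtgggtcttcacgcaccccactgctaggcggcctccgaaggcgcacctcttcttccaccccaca
Tap1 and Psmb9: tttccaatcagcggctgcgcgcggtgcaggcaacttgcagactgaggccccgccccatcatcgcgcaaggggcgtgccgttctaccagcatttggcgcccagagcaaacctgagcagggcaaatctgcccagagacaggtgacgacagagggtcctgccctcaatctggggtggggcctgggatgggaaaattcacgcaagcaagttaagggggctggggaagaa

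The H2-K1 window lies at chr17:34000348-34000597 on the minus strand and the H2-D1 window at chr17:35262844-35263093 on the plus strand. Both heavy chain genes held the kappaB element followed by TTTCACTTC, which is GAANNGAAA on the other strand. The kappaB element began 111 bases before the start of H2-K1 and 171 bases before that of H2-D1. B2m (chr2:122147437-122147686, plus strand) held GAAACTGAAA, beginning 139 bases before its start, and Psmb8 (chr17:34197945-34198194, plus strand) held TTCCCAGAA, beginning 97 bases before. Tap1 and Psmb9 are read in opposite directions from the 225 bases at chr17:34187331-34187555, printed on the Tap1 strand, and neither gene's window held any of the 4 elements.

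Of 32851 such windows over 27025 genes, 2.98% held the response element pattern, 6.31% GAANNGAAA, 7.02% TTCNNNGAA and 0.0852% the kappaB element, which were in 1, 2, 1 and 2 of the 8 member windows. The kappaB letters searched are those of the class I element itself. Their 2 matches, in H2-K1 and H2-D1, are therefore not weighed against the share over all windows. The letters CCAAT were in 6 of the 8 member windows against 33.8% of all windows, and TGACG, the core of a CRE, in 5 of 8 against 17.8%. Both counts hold 1 site of the shared Tap1 and Psmb9 stretch for each of these genes. These matches describe letters in the sequence and not bound sites.

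Library totals ran from 19106205 to 34282319 counts. Levels are given as CPM, the count scaled to the library total after adjustment by TMM factors. In 4 libraries the skeletal muscle actin Acta1 stood at 4064 to 14960 CPM, against at most 425 in the other 20: IgG2a replicates 2 and 3, PD-1 replicate 6 and BRQ+IgG2a replicate 4. They are called muscle-rich. Of 8 melanocytic markers, Tyr and Dct were at 0 in all 24 libraries, Mlana and Tyrp1 were at 0 in most, and Mitf made up most of a summed level of 12.9 to 52.3 CPM, so the pigment-cell markers of the labelled tumour were largely absent.

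The light and heavy chains were among the most abundant transcripts of these tumours and Nlrc5 the least abundant member. Divided by exon length, the mean over 24 tumours was 2360 CPM per kb for B2m, the 5th highest of 15980 genes, 997 for H2-K1 (29th) and 756 for H2-D1 (53rd). Tapbp stood at 111 CPM per kb, Psmb8 at 66.9, Psmb10 at 63.3, Tap1 at 56.9 and Psmb9 at 52.6, while Tap2 stood at 22 and Nlrc5 at 11.2.

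Per kb, the order B2m, H2-K1, H2-D1, Tapbp, Psmb8 held in 24 of 24 tumours, as did Psmb9 over Tap2 and Tap2 over Nlrc5. The 4 members in the middle were not separated: Psmb8 was above Psmb10 in 15 of 24 tumours, Psmb10 above Tap1 in 17 of 24 and Tap1 above Psmb9 in 19 of 24. Heavy chain levels carry an uncertainty, because 8.79% of 50-base stretches of the H2-K1 transcript and 14.3% of those of H2-D1 also occur in other genes. Exons of Tap1 and Psmb9 overlap each other on opposite strands, and exons of Tapbp, Tap2, Nlrc5 and Psmb8 overlap noncoding or predicted genes on the opposite strand, so without a stated strand setting those reads cannot be told apart.

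**Figure D1:**
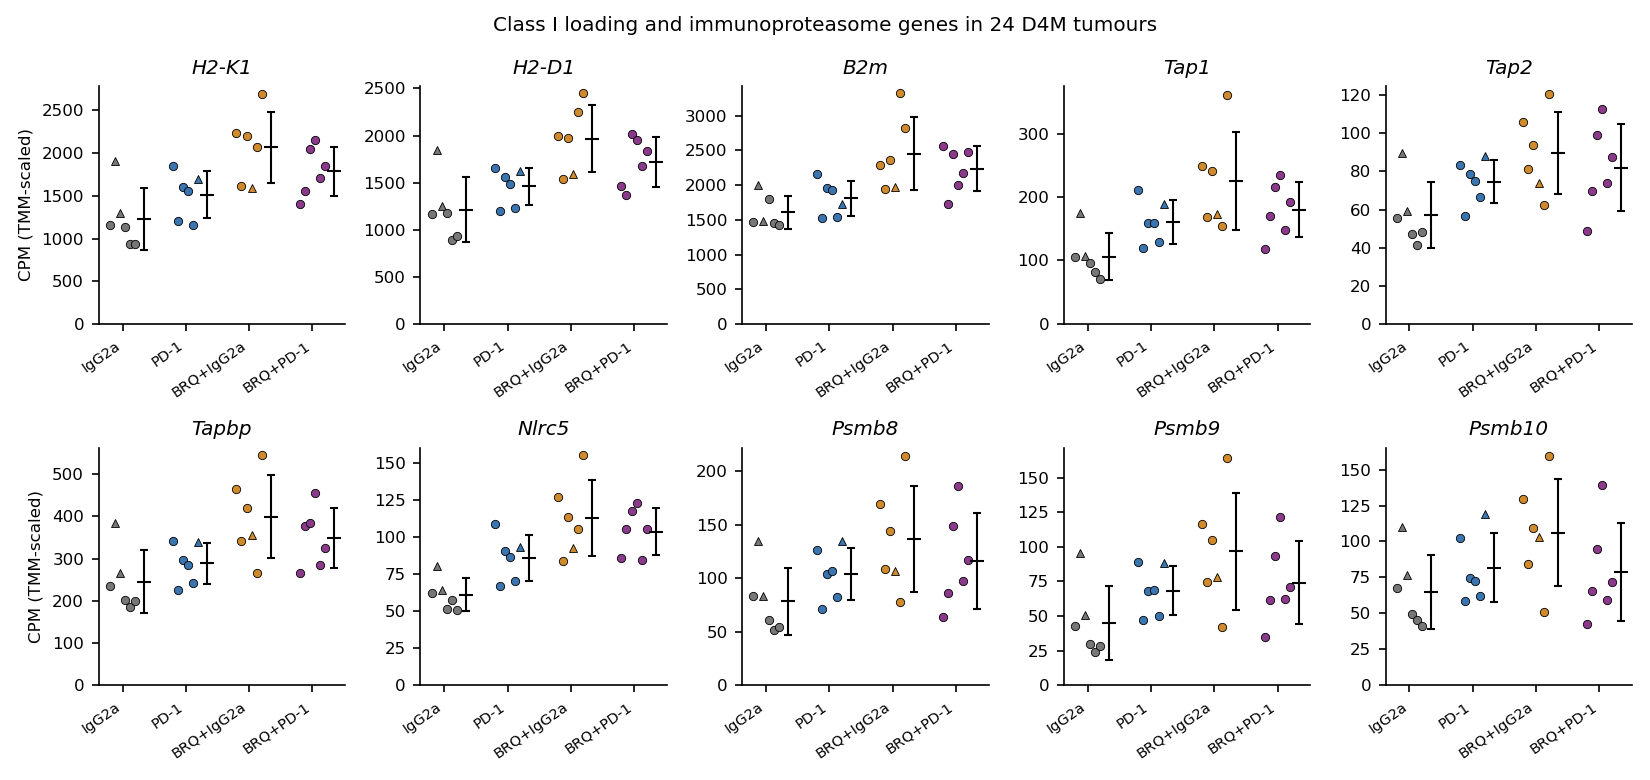
Levels of the 10 members in CPM (vertical axes, starting at 0) in each tumour of the 4 groups. Points are tumours, triangles are muscle-rich tumours, and the bar beside each group is the mean ± SD (n = 6). Nlrc5 is the gene whose BRQ+IgG2a and BRQ+PD-1 tumours all lie above the highest IgG2a tumour at 80.9 CPM.

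BRQ+IgG2a against IgG2a asks what brequinar changed beside the control antibody. The light chain, both heavy chains, Tap1, Tapbp and Nlrc5 rose, by 0.61 to 1.08 on the log2 scale, and 4 members did not pass the test: Tap2 and all 3 immunoproteasome subunits. The 6 of 10 members called higher stand against 2.96% of all genes tested called higher (475 of 16029), 0.493% called lower and 3.46% called either way, and 0 members were lower. The median log2 fold change of the 10 was 0.73, against -0.01 over all genes tested. A gene was called at an edgeR quasi-likelihood adjusted p under 0.05, by the Benjamini-Hochberg method over all genes tested.

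H2-K1, 1 of the classical heavy chains, read 936, 1149 and 1911 CPM in the lowest, median and highest IgG2a tumour and 1597, 2138 and 2695 CPM in BRQ+IgG2a. The groups overlapped through IgG2a replicate 2, the muscle-rich tumour at 1911 CPM, since the next IgG2a tumour stood at 1299. The log2 fold change was 0.75 ± 0.17 (SE; edgeR adjusted p = 0.0121). H2-D1, the other heavy chain, read 889, 1173 and 1850 CPM against 1537, 1983 and 2447 CPM, a log2 fold change of 0.70 ± 0.16 (adjusted p = 0.0117). Its groups likewise overlapped only by the highest IgG2a tumour.

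B2m, the shared light chain, read 1419, 1479 and 2008 CPM in IgG2a and 1950, 2328 and 3329 CPM in BRQ+IgG2a. The 2 lowest treated tumours lay under the highest control, and all 6 were above the control mean. Its log2 fold change was 0.61 ± 0.13 (edgeR adjusted p = 0.0104). In bulk tissue, more cells of a type that carries much class I and more transcript per cell cannot be told apart.

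Tap1, which encodes a chain of the peptide pump, read 70.6, 101 and 176 CPM in IgG2a and 155, 208 and 360 CPM in BRQ+IgG2a. It had the largest change of the called members, a log2 fold change of 1.08 ± 0.23 (edgeR adjusted p = 0.0079), with overlap only through the highest control. Its partner Tap2 read 41.6, 52.0 and 89.6 CPM against 62.2, 87.3 and 121 CPM, at 0.65 ± 0.20 with adjusted p 0.0678. All 6 treated tumours were above the control mean for Tap2, and 3 of them were below the highest control.

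Tapbp, the tapasin gene, read 186, 218 and 385 CPM in IgG2a and 267, 388 and 544 CPM in BRQ+IgG2a, a log2 fold change of 0.70 ± 0.18 (edgeR adjusted p = 0.0301). Here too the overlap came through the highest control alone. Nlrc5, the class I transactivator, read 51.1, 60.0 and 80.9 CPM against 84.3, 110 and 156 CPM. Every treated tumour was above every control. Nlrc5 was the only member with no overlap, 1 of 10, against 1.29% of genes tested whose BRQ+IgG2a tumours all exceeded all controls, and its log2 fold change was 0.88 ± 0.15 (adjusted p = 0.0013).

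Psmb9, the interferon-inducible counterpart of Psmb6, had the largest fitted change of all 10 members and the widest spread. It read 24.3, 36.3 and 95.7 CPM in IgG2a and 42.1, 91.8 and 164 CPM in BRQ+IgG2a, at 1.10 ± 0.34 with edgeR adjusted p 0.0865. Psmb8, the counterpart of Psmb5, read 52.0, 72.5 and 135 CPM against 77.6, 126 and 214 CPM, at 0.80 ± 0.27 with adjusted p 0.122. Psmb10, the counterpart of Psmb7, read 41.4, 58.6 and 110 CPM against 50.8, 106 and 159 CPM, at 0.70 ± 0.29 with adjusted p 0.239. For all 3 subunits the treated and control tumours overlapped, with 5 of 6 treated tumours above the control mean. IgG2a replicate 2 was the highest control and BRQ+IgG2a replicate 5 the lowest treated tumour for each of the 3.

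H2-K1, H2-D1, B2m, Tap1 and Nlrc5 were called in 12 of 12 fits that left out 1 library, and Tapbp in 5 of 12, its call ending without IgG2a replicate 1, 4, 5 or 6 or BRQ+IgG2a replicate 1, 3 or 6. Without IgG2a replicate 2, without BRQ+IgG2a replicate 5, or without the 4 muscle-rich libraries, 9 members were called, all but Psmb10. IgG2a replicate 2, itself muscle-rich, was the highest control for all 10 members, and BRQ+IgG2a replicate 5 the lowest treated tumour for 6. Among the muscle-rich, IgG2a replicate 3 ranked 2 or 3 of 6 from the highest and BRQ+IgG2a replicate 4 ranked 4 to 6. Leaving out such high controls and low treated tumours widens the difference by itself. Fitted on the 12 libraries alone, 3 were called (B2m, Tap1 and Nlrc5).

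**Figure D2:**
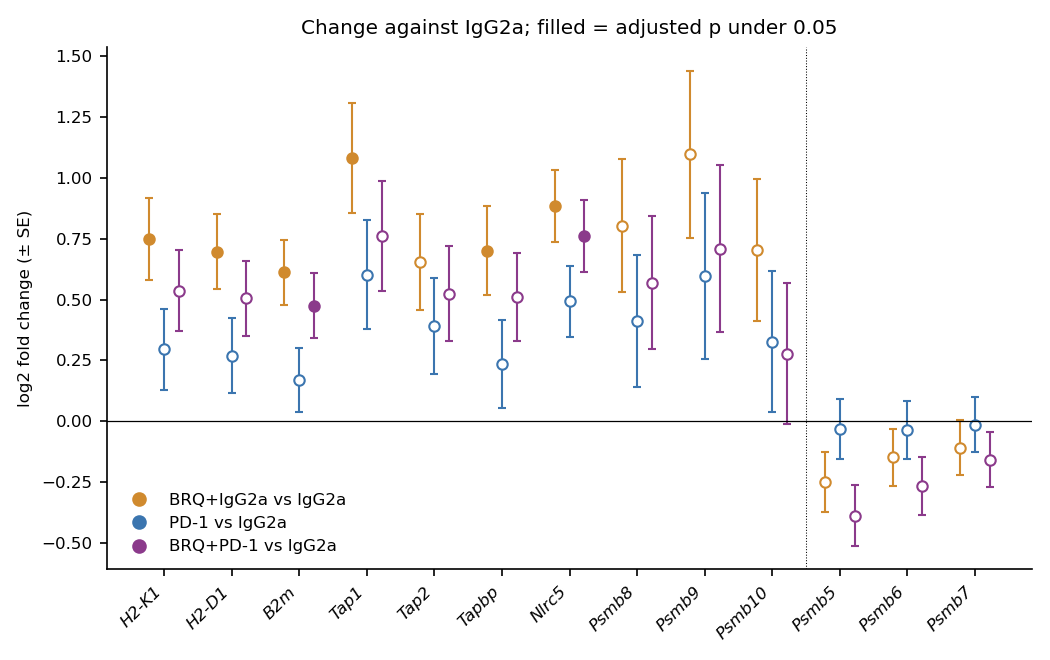
Fitted log2 fold change ± SE (vertical axis) of the 10 members and of the constitutive subunits Psmb5, Psmb6 and Psmb7, right of the dotted line, in the 3 treated groups against IgG2a. Filled points passed the edgeR threshold: 6 members in BRQ+IgG2a, 2 in BRQ+PD-1 and 0 in PD-1.

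With the PD-1 antibody alone, no member passed the test. The contrast of PD-1 with IgG2a called 0 of 10 members, against 0.0187% of all genes (3 of 16029), with 1036 genes at an unadjusted p under 0.05. All 10 fitted changes were above 0, from 0.17 for B2m to 0.60 for Tap1, with a median of 0.36 against 0.00 over all genes tested. DESeq2 and limma voom also called 0 members.

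Tap1 read 119, 159 and 211 CPM in the lowest, median and highest PD-1 tumour, at 0.60 ± 0.22 against IgG2a (edgeR adjusted p = 0.56, unadjusted p = 0.0131). Nlrc5 read 67.4, 88.8 and 109 CPM, at 0.49 ± 0.15 (adjusted p = 0.392, unadjusted p = 0.00275). For both genes 6 of 6 PD-1 tumours were above the control mean, and the groups overlapped through the highest control. For 0 members did every PD-1 tumour lie above every control, against 0.299% of genes tested. H2-K1 read 1159, 1577 and 1853 CPM (0.30 ± 0.17) and B2m 1522, 1826 and 2165 CPM (0.17 ± 0.13), with 4 of 6 tumours above the control mean in each.

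With brequinar and the PD-1 antibody together, B2m and Nlrc5 rose against IgG2a, 2 of 10 members, while 2.48% of genes tested were called higher (398 of 16029), 1.43% lower and 3.91% either way. No member was called lower, and the 10 had a median log2 fold change of 0.53 against 0.01 over all genes tested. This contrast shares its IgG2a tumours with the preceding ones, so the values are set side by side and not compared.

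B2m read 1725, 2313 and 2566 CPM in BRQ+PD-1, at 0.48 ± 0.13 (edgeR adjusted p = 0.0446). Nlrc5 read 84.8, 106 and 124 CPM, at 0.76 ± 0.15 (adjusted p = 0.00569), and every BRQ+PD-1 tumour was above every IgG2a tumour; 1.57% of genes tested showed that separation. B2m overlapped the controls, and of 12 fits without 1 library it was called in 3 (without IgG2a replicate 2, BRQ+PD-1 replicate 2 or BRQ+PD-1 replicate 4), its adjusted p reaching 0.111, and it was not called without the muscle-rich libraries (0.0638). Nlrc5 was called in 12 of 12.

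The other members stayed above the threshold. H2-K1 read 1402, 1783 and 2149 CPM, at 0.54 ± 0.17 (edgeR adjusted p = 0.0675), and H2-D1 1365, 1759 and 2018 CPM, at 0.51 ± 0.15 (adjusted p = 0.0636). Tap1 read 118, 181 and 235 CPM, at 0.76 ± 0.23 (adjusted p = 0.0572). For these 3 genes 6 of 6 treated tumours were above the control mean.

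Tap2 (0.53 ± 0.20), Tapbp (0.51 ± 0.18), Psmb8 (0.57 ± 0.27), Psmb9 (0.71 ± 0.34) and Psmb10 (0.28 ± 0.29) had adjusted p from 0.103 to 0.601. Psmb10 was closest to the control level, with BRQ+PD-1 tumours at 42.4, 68.8 and 139 CPM. Without IgG2a replicate 2 alone, 7 members were called, Tap1 was also called without BRQ+PD-1 replicate 1 (adjusted p = 0.0442), and without the 4 muscle-rich libraries 5 were (H2-K1, H2-D1, Tap1, Tapbp and Nlrc5).

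Against PD-1 alone, BRQ+PD-1 gave 0 called members of 10, where 5.04% of genes tested were called, 2.38% higher and 2.66% lower. For 0 members did every BRQ+PD-1 tumour lie above every PD-1 tumour, against 1.36% of genes tested. The fitted differences ran from -0.05 for Psmb10 to 0.30 for B2m. B2m came nearest to the threshold at 0.30 ± 0.13 (edgeR adjusted p = 0.183), with 5 of 6 BRQ+PD-1 tumours above the PD-1 mean. Against BRQ+IgG2a, adding the antibody gave 10 fitted differences below 0, from -0.43 for Psmb10 to -0.12 for Nlrc5, and 0 called members, in a contrast where edgeR called 0% of all genes (1168 had an unadjusted p under 0.05). With DESeq2 the count was 2 genes and with limma voom 620, with 0 members in each. The groups overlapped for all 10 members. Every BRQ+PD-1 tumour lay above every BRQ+IgG2a tumour in 0.119% of genes tested, and the share lying wholly below was not counted.

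Averaged over both antibodies, 12 brequinar tumours against 12 without it, the same 6 genes rose as in the BRQ+IgG2a contrast, H2-K1, H2-D1, B2m, Tap1, Tapbp and Nlrc5, which is partly the same data. These 6 of 10 stand beside 6.91% of genes tested called higher, 5.57% called lower and 12.5% called either way. Nlrc5 rose by 0.58 ± 0.10 (edgeR adjusted p = 0.00117), B2m by 0.46 ± 0.09 (adjusted p = 0.00286) and Tap1 by 0.62 ± 0.16 (adjusted p = 0.0131). H2-D1 rose by 0.47, H2-K1 by 0.50 and Tapbp by 0.49. All 6 were called in 24 of 24 fits without 1 library.

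Tap2 stood at 0.39 ± 0.14 (edgeR adjusted p = 0.0626), Psmb9 at 0.61 ± 0.24 (0.103), Psmb8 at 0.48 ± 0.19 (0.105) and Psmb10 at 0.33 ± 0.21 (0.309). Without the muscle-rich libraries, or without IgG2a replicate 2 alone, Tap2, Psmb8 and Psmb9 were called too, and Tap2 also without BRQ+IgG2a replicate 5 or BRQ+PD-1 replicate 1. The average effect of the PD-1 antibody called 0 members, with fitted values from -0.05 for Psmb10 to 0.19 for Nlrc5, and 0% of all genes (1229 at an unadjusted p under 0.05; 17 with DESeq2 and 66 with limma voom).

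Whether the brequinar effect differed with the antibody was tested by the interaction. All 10 members had a value below 0, meaning a smaller brequinar difference beside PD-1 antibody than beside IgG2a, and 0 of 10 were called, as were 0% of all genes (1222 at an unadjusted p under 0.05; 13 with DESeq2 and 272 with limma voom). The values ran from -0.98 ± 0.48 for Psmb9 to -0.31 ± 0.19 for B2m. Tap1, at -0.92 ± 0.32, had an edgeR unadjusted p of 0.00771 and adjusted p of 0.534, and limma voom called it (-1.06, adjusted p = 0.0461), the only member it called. Nlrc5 stood at -0.62 ± 0.21, with unadjusted p 0.00686 and adjusted p 0.534.

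The make-up of the proteasome transcripts was described by the ratio of each inducible subunit to the subunit it replaces, per kb of transcript and with no test. Psmb8 over Psmb5 was 0.443, 0.482 and 0.683 in the lowest, median and highest IgG2a tumour and 0.666, 1.07 and 1.75 in BRQ+IgG2a. PD-1 tumours had a median of 0.75 and BRQ+PD-1 tumours one of 0.949. In IgG2a the constitutive transcript was the more abundant in 6 of 6 tumours, and in BRQ+IgG2a the inducible one led in 3 of 6. Which subunit led depended on the division by length: without it the medians were 0.873 and 1.94, and Psmb8 led in 2 of 6 IgG2a and 6 of 6 BRQ+IgG2a tumours.

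Psmb9 over Psmb6 was 0.175, 0.233 and 0.446 in IgG2a and 0.313, 0.614 and 1.1 in BRQ+IgG2a, with medians of 0.421 in PD-1 and 0.517 in BRQ+PD-1. Only BRQ+IgG2a replicate 6 had more Psmb9 than Psmb6 per kb; without the division by length 3 of 6 BRQ+IgG2a and 2 of 6 BRQ+PD-1 tumours did. Psmb10 over Psmb7 was 0.579, 0.665 and 1.03 in IgG2a and 0.639, 1.3 and 1.94 in BRQ+IgG2a, with medians of 0.868 in PD-1 and 0.914 in BRQ+PD-1. Each treated group overlapped the IgG2a range for all 3 pairs; for Psmb8 over Psmb5 the lowest BRQ+PD-1 tumour and the highest IgG2a tumour were both at 0.683.

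**Figure D3:**
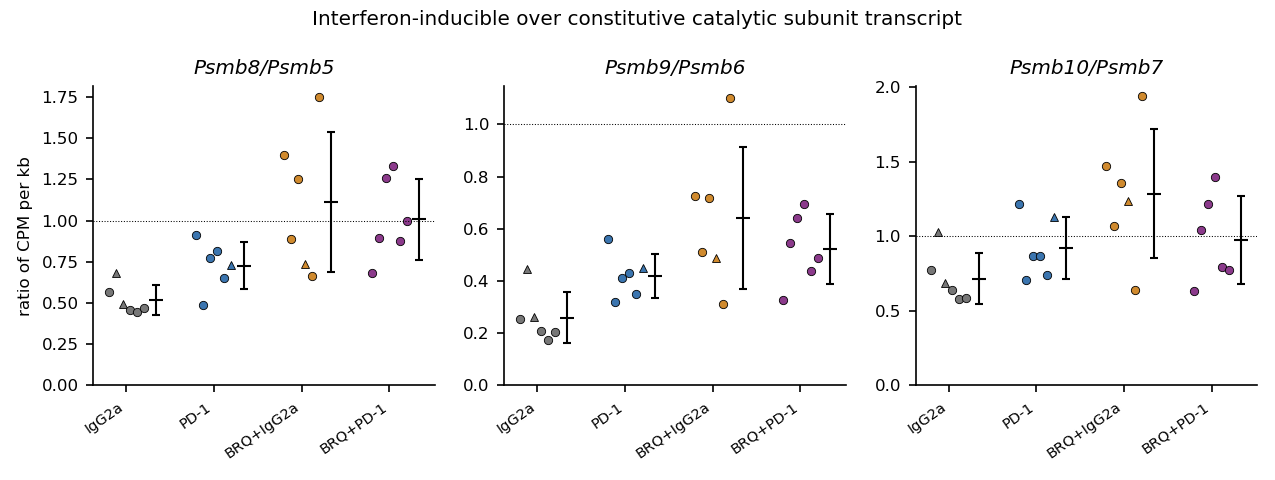
Ratio of CPM per kb of the inducible to the constitutive catalytic subunit (vertical axes, starting at 0) in each tumour. Triangles are muscle-rich tumours, bars are the mean ± SD (n = 6), and the dotted line marks equal levels; the Psmb8/Psmb5 median goes from 0.482 in IgG2a to 1.07 in BRQ+IgG2a.

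The denominators were tested in the average brequinar effect. Psmb5, a constitutive catalytic subunit, fell by 0.30 on the log2 scale (SE 0.09, edgeR adjusted p = 0.0262), while Psmb6 (-0.19 ± 0.08) and Psmb7 (-0.13 ± 0.08) did not pass. Mean Psmb5 levels were 81.1 ± 17.7 CPM in IgG2a tumours, 79.3 ± 11.6 with PD-1 antibody, 68.3 ± 6.23 with brequinar and control antibody, and 62.0 ± 9.32 with both agents (SD, n = 6 each).

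Of 11 other subunits of the proteasome core, 0 were called in the average brequinar effect, where 12.5% of genes tested were called either way. Of 18 genes of its 19S cap, 4 were lower and 0 higher, where 5.57% of genes tested were lower. The 4 were the ATPases Psmc1, Psmc4 and Psmc5 and the ubiquitin receptor Adrm1, lower by 0.15 to 0.23 on the log2 scale. The activators of the cap alternative PA28, Psme1 (0.23 ± 0.14) and Psme2 (0.12 ± 0.14), which interferon gamma also induces, were not called, nor were the other 7 of 9 activator and assembly genes.

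Of 8 genes for folding, loading and trimming in the endoplasmic reticulum, 2 were higher in the average brequinar effect and 0 lower. Among all genes tested 6.91% were higher and 5.57% lower. Both called genes encode aminopeptidases. Erap1, which trims peptides in the endoplasmic reticulum, stood at 0.41 ± 0.08 (edgeR adjusted p = 0.00273). Lnpep, an endosomal aminopeptidase, stood at 0.50 ± 0.08 (adjusted p = 0.000659). The chaperones Calr (0.11 ± 0.09), Canx (0.09 ± 0.08) and Pdia3 (0.14 ± 0.06) and the tapasin relative Tapbpl (0.41 ± 0.16, adjusted p = 0.094) were not called. Of 6 cytosolic peptidases 0 were called, including the abundant Npepps (0.05 ± 0.06) and Nrd1 (-0.04 ± 0.07).

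Among transcription factors for class I genes, Ciita, the class II counterpart of Nlrc5, rose by 1.12 ± 0.28 (edgeR adjusted p = 0.0122) in the average brequinar effect. Rfxap, a subunit of the RFX factor through which Nlrc5 reaches promoters, fell by 0.31 (adjusted p = 0.0241), and Nfya, a subunit of the factor that binds CCAAT, fell by 0.20 (adjusted p = 0.039). Irf1, an interferon-induced activator of class I and immunoproteasome genes, stood at 0.35 ± 0.17 (adjusted p = 0.173).

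Among 12 nonclassical class I genes tested, of 15 listed, 9 were higher in the average brequinar effect and 0 lower, with a median of 0.54. Among all genes tested 6.91% were higher. The smallest adjusted p were those of H2-M2 (3.57 ± 0.58), at 0.477 ± 0.32 CPM in IgG2a and 7.85 ± 8.75 in BRQ+IgG2a (SD, n = 6 each), H2-M3 (0.54 ± 0.11), which presents formylated peptides, H2-T23 (0.81 ± 0.16), which encodes Qa-1, and H2-Q6 (0.76 ± 0.17). Copies in this family may share reads with one another and with H2-D1.

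Of 6 genes tested for the type I interferon receptor and its factor ISGF3, 4 were higher: Stat2 (0.53 ± 0.12), Irf9 (0.44 ± 0.10), Ifnar1 (0.18 ± 0.06) and Irf7 (0.69 ± 0.23). Of 8 genes of interferon gamma and its receptor pathway, only Ifngr1 was called (0.18 ± 0.06, edgeR adjusted p = 0.0428). In this average brequinar effect 12.5% of all genes tested were called either way and 6.91% higher, so 1 of 8 is no more than the share over all genes. Ifng itself stood near the floor, with 1 to 88 counts per tumour. In the lowest, median and highest IgG2a tumour it read 0.0339, 0.274 and 2.11 CPM, and in PD-1 tumours 0.519, 0.697 and 1.12. With brequinar it read 0.355, 1.33 and 3.72 CPM beside the control antibody and 0.544, 0.933 and 2.79 beside the PD-1 antibody. Its average brequinar difference of 1.19 ± 0.46 was not called (adjusted p = 0.0917).

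Most markers of T cells and cytotoxic lymphocytes rose with brequinar beside the control antibody. In BRQ+IgG2a against IgG2a, where 2.96% of genes tested were called higher, 8 of 11 T cell markers, 7 of 10 cytotoxic lymphocyte markers, 3 of 5 general leukocyte markers, 3 of 8 dendritic cell markers and 1 of 8 macrophage markers were called higher, and 0 of these were lower. In BRQ+PD-1 against IgG2a the counts of these lists were 1, 1, 2, 3 and 0, where 2.48% of genes tested were called higher. In BRQ+PD-1 against PD-1 they were 0, 0, 0, 1 and 0, where 2.38% were. In both contrasts 0 of these markers were lower. Summed T cell markers ran from 14.1 to 56.4 CPM in IgG2a tumours, 26.1 to 74.7 with PD-1 antibody, 27.2 to 175 with brequinar and control antibody, and 22.9 to 106 with both agents. Summed leukocyte markers ran from 499 to 780, 577 to 984, 639 to 1190 and 672 to 1070 CPM in the same order.

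Cytotoxic lymphocyte markers summed to 11 to 55.1, 19.9 to 55.3, 28.5 to 169 and 29.1 to 84.2 CPM, dendritic cell markers to 42.8 to 56.5, 53.2 to 128, 69.8 to 136 and 90.5 to 169 CPM, and macrophage markers to 1160 to 2170, 1350 to 2030, 1040 to 2970 and 1580 to 2410 CPM. By group means, Itgax was the largest part of the dendritic cell sum, at 29.6, 69.9, 73.6 and 89.2 CPM in the same order. None of these 5 lists had a marker at 0 in all tumours of a group. Of the other lists, 1 of 4 neutrophil markers tested was called higher in BRQ+IgG2a against IgG2a. Of 3 B cell, 7 fibroblast, 5 endothelial, 3 melanocytic and 13 muscle markers tested, 0 were called in that contrast. The part of these cells in the member levels was not tested.

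Levels varied widely from tumour to tumour. Psmb9 spanned 6.76-fold over the 24 tumours, Tap1 5.1-fold and B2m 2.35-fold. BRQ+IgG2a replicate 6 was the highest tumour of all for 9 members, with Tap1 at 360 and Psmb9 at 164 CPM, and it had the highest T cell sum (175 CPM). IgG2a replicate 2 was the highest control for all 10 members, with the highest T cell sum of its group (56.4 CPM), and PD-1 replicate 2 was the lowest of its group for 9 members, with the lowest T cell sum (26.1 CPM). Other tumours did not pair in this way. PD-1 replicate 1 was the highest of its group for 7 members, with a T cell sum of 51 CPM against 74.7 in PD-1 replicate 6. BRQ+PD-1 replicate 4 was the highest of its group for 8 members, with 89.3 CPM against 106 in BRQ+PD-1 replicate 3.

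In 2 tumours B2m and the genes of peptide supply parted. BRQ+IgG2a replicate 5 had the highest B2m of all tumours, at 3329 CPM, and the lowest Tap1, Tap2, Tapbp, Psmb8, Psmb9 and Psmb10 of its group, while H2-D1 ranked 2 of 6 there and H2-K1 and Nlrc5 ranked 4. BRQ+PD-1 replicate 1 had the highest B2m of its group, at 2566 CPM, and the lowest value for 7 members, H2-K1, Tap1, Tap2, Tapbp, Psmb8, Psmb9 and Psmb10. These tumours had the lowest T cell sums of their groups (27.2 and 22.9 CPM), the lowest fibroblast sums (5970 and 5760 CPM) and the highest melanocytic sums (42.9 and 52.3 CPM, nearly all Mitf at 41.9 and 51.9). Their TMM factors, 0.914 and 0.928, were the lowest of the 24 libraries, which raises their CPM. By library total alone, BRQ+PD-1 replicate 3 (55404 B2m counts of 22631382) stood above BRQ+PD-1 replicate 1 (61366 of 25773721). The 2 tumours were picked after their values were seen, and no test was made of them.

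**Figure D4:**
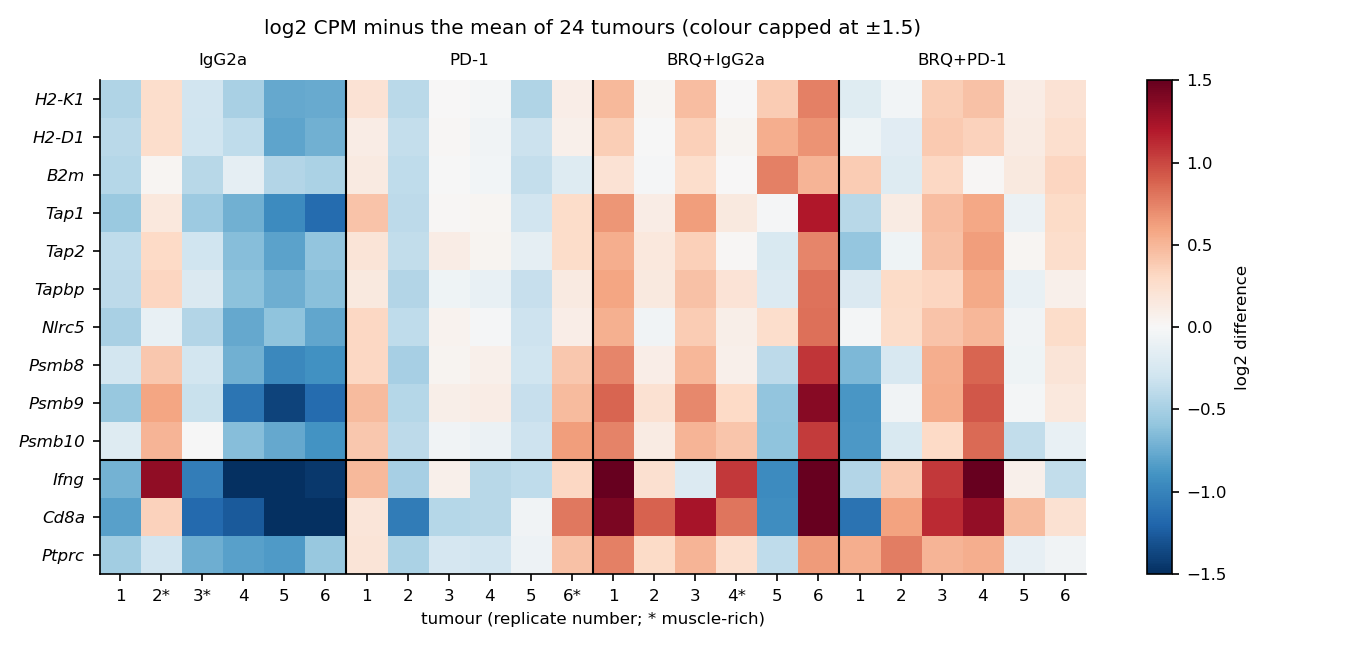
Log2 CPM of the members and of Ifng, Cd8a and Ptprc in each tumour, minus the gene's mean over 24 tumours (colour, capped at ±1.5). Columns are tumours by group and replicate, with asterisks for muscle-rich tumours; BRQ+IgG2a replicate 5 and BRQ+PD-1 replicate 1 are red for B2m and blue for Psmb9.

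Across the 24 tumours the members varied together, with the lowest correlations for B2m. Over 45 pairs, on log2 CPM, the 36 pairs without B2m had Pearson r from 0.69 to 0.98 and Spearman rho from 0.67 to 0.99, and with group means removed r was 0.65 to 0.98. The closest were H2-K1 with H2-D1, Psmb8 with Psmb9, and Tap2 with each of these 2 subunits, all at r = 0.98 (permutation p = 1e-05, the smallest that 100000 resamples can give; adjusted over 45 pairs 1.29e-05; rho 0.97 to 0.99). Leaving out the 2 tumours farthest from the median gave r of 0.97 to 0.98 for these pairs, and the 20 tumours that were not muscle-rich gave 0.98 to 0.99. Tap1 and Psmb9, which start from the shared 225 bases printed above, had r = 0.95 (rho 0.95). This value was not particular to the pair, since Tap1 also had r = 0.95 with H2-K1, Tap2, Tapbp and Nlrc5. Exons of Tap1 and Psmb9 overlap on opposite strands, so without a stated strand setting they may share reads.

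B2m had r = 0.87 with H2-D1 (rho 0.87) and 0.81 with H2-K1 (rho 0.81). Its r was 0.49 with Psmb8 (rho 0.54), 0.47 with Psmb9 (rho 0.52) and 0.30 with Psmb10 (rho 0.35, permutation p = 0.156 for r and 0.0966 for rho, adjusted 0.156 and 0.0966). With group means removed these fell to 0.20, 0.13 and 0.04. Without the 2 tumours with B2m farthest from the median they were 0.59, 0.58 and 0.39, and in the 20 tumours that were not muscle-rich 0.53, 0.50 and 0.38.

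Levels of Ifng and of the leukocyte gene Ptprc were related to each member in 20 relations. For Ifng, Pearson r was highest for Tapbp and Psmb9 (0.91 each; rho 0.92 and 0.90; permutation p = 1e-05, adjusted 1.82e-05) and 0.88 for Tap2 and Psmb8. With group means removed r was still 0.88 for Tapbp and 0.87 for Psmb9 (adjusted p = 5e-05), and without the 2 tumours farthest from the Ifng median, IgG2a replicate 5 and BRQ+IgG2a replicate 6, it was 0.88 and 0.87. For H2-K1 r was 0.80 (rho 0.75), 0.70 without those tumours and 0.69 with group means removed.

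For B2m it was the lowest of the 10, r = 0.45 with rho 0.49 (permutation p = 0.0266 for r and 0.0154 for rho, the same after adjustment). It was 0.27 without the 2 farthest tumours and 0.07 with group means removed (adjusted p = 0.759), so that within groups a relation of B2m to Ifng was not detected. In the 20 tumours that were not muscle-rich r was 0.91 for Psmb9 and 0.46 for B2m.

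For Ptprc, r ran from 0.50 for B2m to 0.83 for Tapbp and Nlrc5 (rho 0.55, 0.82 and 0.83; adjusted permutation p 0.014, 1.82e-05 and 1.82e-05). Without the 2 tumours farthest from the Ptprc median these were 0.57, 0.82 and 0.82. With group means removed r was 0.72 for Tapbp, 0.53 for Nlrc5, 0.36 for H2-K1 and -0.15 for B2m (adjusted p = 0.000543, 0.0208, 0.106 and 0.568).

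**Figure D5:**
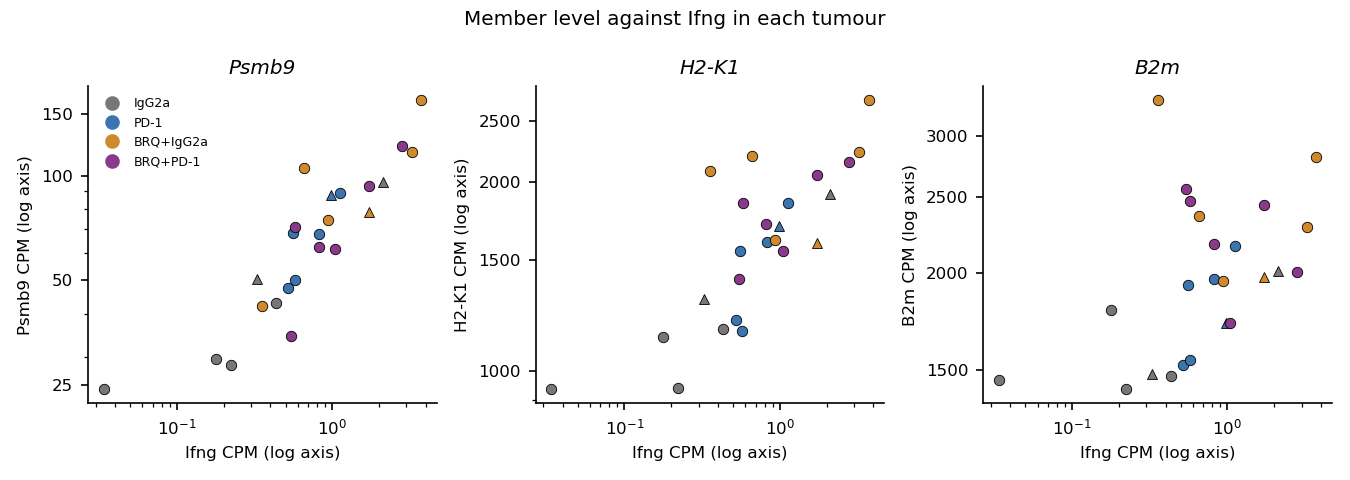
Level of Psmb9, H2-K1 and B2m (vertical, log axes) against Ifng (horizontal, log axis) in each of 24 tumours, in CPM, coloured by group, with triangles for muscle-rich tumours. Pearson r of the log values is 0.91 for Psmb9, 0.80 for H2-K1 and 0.45 for B2m.

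The genes most like the members were found from the correlation of log2 CPM with the mean of the 10 members over 24 tumours. They were Igtp (r = 0.971), an interferon-induced GTPase, H2-Q4 (0.967), a nonclassical class I gene, Il18bp (0.964), a decoy for interleukin-18, Ccl5 (0.962), a T cell chemokine, and Batf2 (0.961), an interferon-induced transcription factor. With group means removed they were Psme2 (0.965), Irf1 (0.965), Tapbpl (0.953), Igtp (0.950) and Batf2 (0.949). Psme2 and Irf1 were not called in the average brequinar effect. On the same measure Cd8a had r = 0.931, Ifng 0.886 and Ptprc 0.759 over the 24 tumours, which share their libraries with the members.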

How the data were processed

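RNA was purified on Qiagen columns and sequenced by a company, per the labels' protocols, and each tumour gave 1 library. The authors deposited whole-number counts per Ensembl gene, not normalized, and every value here was computed from these counts. The submitters' processing notes name HISAT2 2.2.1, StringTie 2.2.1, Trim Galore 0.6.7 and build GRCm39; for the counting program, annotation and strandedness, information is not given in the sources used here. Further deposited tables of FPKM and TPM values were not used here.

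Symbols, exon lengths and exon overlaps came from GENCODE M21 (an older build, used for no coordinates of counts); 15980 of 16029 tested genes had a symbol. Tests used edgeR 4.0.16 in R 4.3.3: TMM factors, filterByExpr by group, robust quasi-likelihood fit of group over 24 libraries with 20 residual degrees of freedom, and Benjamini-Hochberg adjustment over 16029 genes at 0.05. SE is the log2 fold change over the root of F. The average effects and the interaction are contrasts of the 4 group means. Correlations used log2 CPM with a prior count of 2. The test was checked on simulated counts with changes set in BRQ+IgG2a against IgG2a. It recovered 40.3% of 1.5-fold, 85.1% of 2-fold and 98.5% of 4-fold changes, with 4 false calls among 153. A member that was not called may therefore still have changed by a small amount. Alternatives were RLE factors, no expression filter, DESeq2 1.42.0, limma 3.58.1 voom with quality weights, a replicate number block, no robust dispersion, the 2 groups alone, leaving out each library, ratios without length and, chosen with the data known, leaving out libraries with Acta1 above 1000 CPM. Replicates differed by 9.89 to 231 times the sampling noise (chi-square per degree of freedom, 60 pairs), so none was counted as a copy. The p-values of group contrasts set a difference against the spread between these tumours. Those of correlations come from permuting the 24 tumours, within groups where group means were removed. Both take the tumours as independent, and the labels do not say whether each came from a separate mouse.

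The members, gene lists, motifs and tests were chosen with earlier results of these data known. Named genes were all members; Psmb5, Psmb6, Psmb7, Psme1, Psme2, Irf1 and Ifng; up to 4 genes per pathway list called in the average brequinar effect, by adjusted p, or the 2 most abundant of a list with none called; leading cell markers; and the 5 genes most like the members on each measure. Genes named outside this rule (among them Cd8a, Ptprc, Acta1, Calr, Canx, Pdia3, Tyr, Dct, Mlana, Tyrp1 and Itgax) were chosen after their values were seen. 1 listed gene and the count of its list are not reported here. The authors' replicate numbers were not taken as pairs.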

Additional observations from a re-analysis of the deposited data

Results flagged for a closer look

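IgG2a replicate 2, a muscle-rich tumour, stood apart from the other 5 IgG2a tumours. H2-K1 was at 1911 CPM there, against 1299 in the next tumour, Tap1 at 175.5 against 107.8, Tap2 at 89.63 against 59.34 and Psmb9 at 95.7 against 50.53 CPM. The Psmb9/Psmb6 ratio was 0.4463 against 0.2631. In each case the gap to the next tumour took a larger share of the group's range than the 95% limit of Dixon's test for 6 values. This test was made on 52 groups, 5 passed, and chance passes about 1 in 20; all 5 are 1 tumour and the genes vary together. With this library left out, 9 members were called in BRQ+IgG2a against IgG2a and 7 in BRQ+PD-1 against IgG2a.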

How the results depend on the processing

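Of 1930 member values under the alternatives, 1829 kept direction and side of the threshold, 51 newly passed it, 24 no longer did and 26 changed sign; all 26 lay in contrasts that called 0 members. In BRQ+IgG2a against IgG2a (6 members) the counts were 6 with RLE factors, 5 with no expression filter, 3 with the 2 groups alone, 9 with DESeq2, 10 with limma voom and 5 to 9 without 1 library. In BRQ+PD-1 against IgG2a (2 members) they were 1 with no filter, 1 with the 2 groups alone, 5 with DESeq2, 9 with limma voom, 5 without the muscle-rich libraries and 1 to 7 without 1 library. For the average brequinar effect (6) limma voom gave 10, DESeq2 7 and leaving out 1 library 6 to 9. Limma voom also called 1 member in BRQ+PD-1 against PD-1 (B2m, 0.32, adjusted p = 0.0421) and 1 in the interaction. The cause was not tested.

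Replicate numbers were not taken as pairs: 36 correlations of same-numbered deviations ran from -0.64 to 0.444, 21 of them under 0.1, and 3 of 24 libraries correlated best with their own number. With the replicate block 6 members were called in BRQ+IgG2a against IgG2a and 1 in BRQ+PD-1 against IgG2a, and the counts of all genes went from 554 to 361, 627 to 285, 808 to 411 (BRQ+PD-1 against PD-1) and 2001 to 1412 (average brequinar effect). In the same order limma voom called 2113, 1455, 2194 and 3797 genes, DESeq2 876, 1540, 1340 and 2625, no filter 377, 297, 431 and 1379, and leaving out 1 library 258 to 1179, 256 to 783, 399 to 1083 and 1516 to 2525. The 2 groups alone gave 337, 371 and 360 genes in the first 3 and were not run for average effects or the interaction. Without the muscle-rich libraries the counts were 657, 404, 502 and 1642. In PD-1 against IgG2a (3 genes) DESeq2 called 32 and limma voom 9.

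Signs changed for Psmb10 in BRQ+PD-1 against PD-1 (0.044 with limma voom, 0.085 without the muscle-rich libraries, -0.288 to 0.091 without 1 library) and in the average PD-1 antibody effect (0.043 without the muscle-rich libraries, -0.170 to 0.050 without 1 library), and for B2m in BRQ+PD-1 against BRQ+IgG2a (0.006 with limma voom). Leaving out 1 library gave -0.026 to 0.279 for Psmb8 and -0.083 to 0.257 for Psmb9 in BRQ+PD-1 against PD-1, and -0.013 to 0.071 for B2m, -0.025 to 0.10 for Tapbp and -0.002 to 0.195 for Psmb8 in the average PD-1 antibody effect. Differences between groups in the log2 subunit ratios stayed within 1 SD under each alternative. Division by length, the same in every tumour, and library scaling cancel from these differences, so changing them could not move the differences. Without division by length the median Psmb8/Psmb5 ratio in IgG2a was 0.873 in place of 0.482. Ifng, at 1 to 88 counts, is limited by depth.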
